A study of Mus musculus with 10 samples.

Results

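In mouse bone marrow-derived dendritic cells treated with an extract of apple mango leaves (AMLE), 12820 distinct intervals were listed as open chromatin in both ATAC-seq libraries. Of these, 747 intervals (5.83%) shared not 1 base with an interval listed in both libraries of cells given the vehicle, DMSO. These 747 intervals are called AMLE consensus-only regions. The name refers to the consensus lists and not to single libraries, since 614 of them (82.2%) have a peak in at least 1 DMSO library, and 133 have none. They were chosen by the measured peak calls of all 4 ATAC libraries, so their peak strength is given as a description and no test of openness between the groups was made. RNA counts and gene positions took no part in the choice. Coordinates are those of build mm10. For comparison, the remaining 12073 AMLE intervals that overlap the DMSO consensus are called shared, and the 3545 of 15643 DMSO consensus intervals (22.7%) that overlap no AMLE consensus interval are called DMSO consensus-only by the same rule.

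Both groups came from the marrow of female wild-type C57BL/6 mice aged 8 to 10 weeks, cultured with 20 ng/mL GM-CSF. Non-adherent cells of day 6, taken as immature, received AMLE at 400 µg/mL or DMSO at 0.04% and were harvested after 24 hours. RNA-seq covered 3 AMLE and 3 DMSO libraries, and ATAC-seq covered 2 AMLE and 2 DMSO libraries of 100000 cells each. The labels name neither separate mice nor separate cultures for the replicates, so the p-values cover the spread between these libraries alone, and that spread may be technical. They also do not say whether the AMLE cultures held DMSO.

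RNA totals lay between 26010455 and 34208286 counts per library, and the AMLE ATAC libraries had 15805 and 15597 distinct peaks, against 18460 and 19225 in the DMSO libraries. A gene was called higher or lower in AMLE cells where edgeR's quasi-likelihood test gave a Benjamini-Hochberg adjusted p under 0.05 over the 13075 genes tested, and log2 fold changes are AMLE minus DMSO. Some calls are also given from a fit with the replicate number as a block. On the first principal component of the RNA data, which held 76.6% of the variance, AMLE replicate 3 lay at 23.0, nearer to the DMSO libraries (-42.0 to -31.1) than the other AMLE libraries at 38.3 and 46.5. All 8 dendritic cell markers were detected, with summed levels of 6757 to 7956 CPM (counts scaled to each library's total) in AMLE libraries and 6180 to 9420 CPM in DMSO libraries. The cultures also held neutrophil markers (7415 to 10780 CPM in AMLE, 9458 to 15578 CPM in DMSO) and macrophage markers (840.1 to 1466 CPM in AMLE, 1429 to 1750 CPM in DMSO). Mast cell and basophil markers summed to 187.5 to 343 CPM in AMLE and 114 to 174 CPM in DMSO. Of these 4 markers, 2 were called higher and none lower, and none was nearest to an AMLE consensus-only region. Of the 8 dendritic cell markers, 3 were higher and 1 lower, and of 6 macrophage markers 1 was higher and 3 lower. Of the 4 neutrophil markers counted, 2 were lower and none higher. Over all tested genes, 23.0% were higher and 25.6% lower. The part of these cell types in the RNA results was not tested. T cell markers summed to at most 2.83 CPM, and the erythroid genes Hba-a1 and Hbb-bs were at 0 in all 6 libraries. In such bulk samples, fewer cells of a type and less RNA per cell cannot be told apart.

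ATAC-seq marks DNA that a transposase can reach, mostly at promoters and enhancers where nucleosomes have been displaced by transcription factors. Dendritic cells carry antigen from tissues to T cells. When they mature they raise costimulatory molecules and cytokines, rebuild their actin cytoskeleton to migrate and leave the cell cycle, with NF-kB and AP-1 factors acting at enhancers that the myeloid factor PU.1 keeps accessible.

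Only regions that lie on a promoter could be read as sequence here, so what follows does not cover the regions far from a gene start. In 105 RefSeq promoter windows (300 bases each, build GRCm38.p6) of 101 genes, an AMLE consensus-only region covered at least 150 bases. The 8 sequences here were chosen after their values were seen. The first 5 belong to genes with more RNA in AMLE cells, Hmgb3 to a gene with less, and the last 2 to regions among the 8 with the highest fold enrichment. Each is the part of the region that lies before the gene start, read 5′ to 3′ on the gene's strand, with matches to the motifs searched in capitals.
Aldh1a2 (chr9:71215622-71215788, plus strand): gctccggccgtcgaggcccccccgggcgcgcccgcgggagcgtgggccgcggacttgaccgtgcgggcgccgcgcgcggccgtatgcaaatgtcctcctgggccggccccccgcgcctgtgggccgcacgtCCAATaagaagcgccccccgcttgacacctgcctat
Htr7 (chr19:36057361-36057608, minus strand): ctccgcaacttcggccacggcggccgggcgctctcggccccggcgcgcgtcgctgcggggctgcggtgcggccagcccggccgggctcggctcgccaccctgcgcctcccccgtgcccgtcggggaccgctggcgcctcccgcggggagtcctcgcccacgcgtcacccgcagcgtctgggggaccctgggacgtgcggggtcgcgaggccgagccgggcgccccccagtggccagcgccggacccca
Havcr2 (chr11:46454756-46454917, plus strand): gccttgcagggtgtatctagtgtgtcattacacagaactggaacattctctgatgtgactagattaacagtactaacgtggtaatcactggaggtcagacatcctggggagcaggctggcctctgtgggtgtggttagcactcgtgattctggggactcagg
Tspan33 (chr6:29694057-29694213, plus strand): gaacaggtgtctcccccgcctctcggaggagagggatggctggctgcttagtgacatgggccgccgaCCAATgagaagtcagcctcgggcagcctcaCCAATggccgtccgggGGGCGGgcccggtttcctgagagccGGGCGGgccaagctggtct
Il15ra (chr2:11705462-11705711, plus strand): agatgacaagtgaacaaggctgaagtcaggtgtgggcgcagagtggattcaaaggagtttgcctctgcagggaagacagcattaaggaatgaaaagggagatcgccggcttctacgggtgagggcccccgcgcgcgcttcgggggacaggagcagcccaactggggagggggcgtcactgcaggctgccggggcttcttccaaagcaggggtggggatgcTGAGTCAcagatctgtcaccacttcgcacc
Hmgb3 (chrX:71555808-71555916, plus strand): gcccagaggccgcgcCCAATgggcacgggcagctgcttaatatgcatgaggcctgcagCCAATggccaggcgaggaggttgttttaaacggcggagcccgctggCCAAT
Depdc5 (chr5:32863599-32863720, plus strand): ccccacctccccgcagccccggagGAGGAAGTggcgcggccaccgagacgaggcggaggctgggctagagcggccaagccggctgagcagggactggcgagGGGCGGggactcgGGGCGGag
Ccdc86 (chr19:10949267-10949498, minus strand): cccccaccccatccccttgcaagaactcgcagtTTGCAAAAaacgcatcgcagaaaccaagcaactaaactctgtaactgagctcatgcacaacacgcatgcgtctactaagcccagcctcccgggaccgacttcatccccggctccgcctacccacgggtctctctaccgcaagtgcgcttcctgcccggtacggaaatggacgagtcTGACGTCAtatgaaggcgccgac

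The capitals mark CCAAT (the NF-Y box) in the Aldh1a2, Tspan33 and Hmgb3 stretches and GGGCGG (the GC box) in those of Tspan33 and Depdc5. They mark the AP-1 motif in the Il15ra stretch, the PU.1 motif in the Depdc5 stretch, and a C/EBP motif and a CRE in the Ccdc86 stretch. The Htr7 and Havcr2 stretches hold none of the 10 motifs searched. Over the 105 windows, the median GC content was 70.0%, against 63.7% in 7216 windows covered in the same way by shared intervals and 52.7% in all 32851 RefSeq windows. The CRE (TGACGTCA) was in 7 of the 105 windows (6.67%), against 3.96% of the shared and 1.79% of all windows. The 7 include overlapping windows of Gm26564, and other windows overlap as well, so a site can count more than once. The GC box was in 74.3%, against 73.9% of the shared and 35.7% of all windows, and CCAAT in 27.6%, against 41.8% and 37.4%. The kappa-B motif (GGGANTTTC) was in none of the 105, against 0.956% of the shared and 1.11% of all windows. AP-1 (TGANTCA, 4.76%), PU.1 (GAGGAAGT, 2.86%), the IRF element (GAAANNGAA, 5.71%) and C/EBP (TTGCNNAA, 6.67%) stood within 1 percentage point of their shares in the shared windows, which were 3.96%, 3.37%, 5.74% and 6.96%. The E-box (CACGTG) was in 12.4% of the windows, against 11.5% of the shared and 7.15% of all, and the NRF motif (GCGCATGCG) in 3.81%, against 5.06% and 1.75%. Both strands were searched, a GC box or CCAAT may overlap another motif, and a match is only a run of letters.

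AMLE consensus-only regions were narrow and ranked low among the peaks of their own libraries. Their median width was 270 bp (range 1 to 1240 bp), against 520 bp for the shared intervals and 294 bp for DMSO consensus-only intervals. Only 62 of them (8.30%) reached 500 bp, against 53.5% of the shared intervals. The authors' fold enrichment over local background had a median of 4.42 in AMLE replicate 1 (range 1.96 to 14.0) and 4.60 in AMLE replicate 2. The shared intervals had medians of 8.50 and 8.65 in the same libraries. Ranked by fold among the peaks of its own library, the median AMLE consensus-only region stood at percentile 21.2 in AMLE replicate 1 and 21.0 in AMLE replicate 2, and 434 and 437 of the 747 lay below percentile 25. The median −log10 q, where q is the peak caller's adjusted p, was 4.05 and 4.36, against 19.3 and 19.9 for the shared intervals. In both AMLE libraries at once, 179 regions (24.0%) had a −log10 q of 5 or more, against 84.3% of the shared intervals.

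Most AMLE consensus-only regions were open by the authors' calls in 1 of the 2 DMSO libraries. A peak of DMSO replicate 2 alone overlapped 393 regions (52.6%), a peak of DMSO replicate 1 alone overlapped 218 (29.2%), and 133 (17.8%) had a peak in neither. In the remaining 3 regions both DMSO libraries had a peak, but not over the same bases, so no DMSO consensus interval arose. The widest AMLE consensus-only region of all, 1240 bp at the start of Sos2 (chr12:69681043-69682282), a guanine nucleotide exchange factor of the RAS pathway, is 1 of these 3. A single-library DMSO peak covered at least 50% of the region in 569 cases. Among the 396 regions with a peak in DMSO replicate 2, the median DMSO peak stood at percentile 30.1 of that library by fold, and among the 221 with a peak in DMSO replicate 1 at percentile 22.1. In the mirror image, 2049 of the 3545 DMSO consensus-only intervals (57.8%) had a peak in at least 1 AMLE library. The count of AMLE consensus-only regions rests on the consensus rule: it was 351 against the peaks of DMSO replicate 2 alone and 526 against those of DMSO replicate 1 alone.

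**Figure D1:**
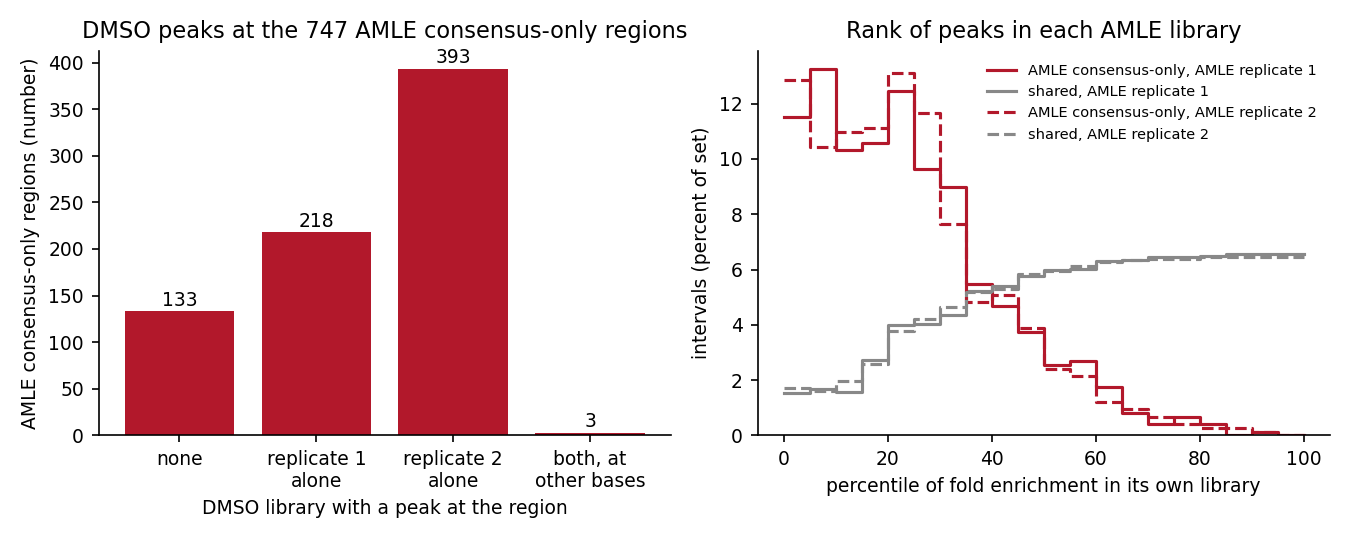
Left, number of AMLE consensus-only regions by the DMSO library that has a peak there; right, share of AMLE consensus-only and shared intervals (percent of each set) by the percentile of their fold enrichment among the peaks of each AMLE library. DMSO replicate 2 alone has a peak at 393 of the 747 regions, and the AMLE consensus-only regions gather at low percentiles in both AMLE libraries (medians 21.2 and 21.0).

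Some regions lay within a few bases of the edge of the rule. The AMLE consensus-only region nearest to Slc38a1 (chr15:96666351-96666875) abuts a DMSO consensus interval with no base between them, and the one at Zmym2 (chr14:56886291-56886559) lies 2 bp from one. Just inside the rule's edge, and so not counted, was an interval of 904 bp near Tcof1 that shares 9 bp with the DMSO consensus. An interval near Psat1 (chr19:15924647-15924655) also shares 9 bp with it, but is only 9 bp wide and so lies wholly inside it. Fold enrichments in AMLE replicates 1 and 2 were 4.64 and 5.93 at the Slc38a1 region, 3.62 and 5.23 at Zmym2, 4.18 and 6.19 near Psat1, and 3.40 and 3.45 near Tcof1. Most regions were far from such an edge: the median gap to the nearest DMSO consensus interval was 14146 bp, and 21 regions had a gap under 100 bp. In 14 regions the shared stretch of the 2 AMLE peaks was narrower than 50 bp.

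The strongest AMLE consensus-only regions were called in a DMSO library as well. The highest mean fold enrichment was at the start of Bptf (chr11:107132064-107132343), a subunit of the NURF chromatin remodeller, with 14.0 and 11.8 in AMLE replicates 1 and 2 and a DMSO replicate 2 peak of 15.2 in its own list. Next stood the start of Depdc5 (chr5:32863599-32863896), a subunit of the GATOR1 complex that restrains mTORC1, with 12.5 and 12.99, and the upstream side of 9930021J03Rik (chr19:29806469-29806722), with 11.0 and 11.3. The other 5 were at Ccdc86 (chr19:10949235-10949498), E430018J23Rik (chr7:127393679-127394021), Dcun1d3 (chr7:119879255-119879531), Htr2a (chr14:74643356-74643589) and Pum2 (chr12:8673900-8674231), with 9.21 to 12.1. DMSO replicate 1 alone had a peak at E430018J23Rik, and DMSO replicate 2 alone at the other 7. No gene of these 8 differed by more than 1.64-fold in RNA. Htr2a, a serotonin receptor, had 4.23, 3.71 and 3.82 CPM in AMLE libraries, against 2.13, 2.53 and 2.52 CPM in DMSO libraries (log2 fold change 0.71, SE 0.14, edgeR adjusted p = 0.0054), and Depdc5 had 52.7, 57.0 and 55.7 CPM in AMLE libraries, against 41.5, 40.3 and 46.3 CPM in DMSO libraries (log2 fold change 0.37, SE 0.07, edgeR adjusted p = 0.0037). The groups did not overlap in either gene. 9930021J03Rik rose by 0.24 and Ccdc86 fell by 0.25 on the log2 scale (edgeR adjusted p = 0.0326 and 0.0484), and both calls were lost when single libraries were left out, with adjusted p up to 0.113 and 0.136. Bptf did not pass (log2 fold change 0.15, edgeR adjusted p = 0.056, or 0.0323 with the replicate block). E430018J23Rik, Dcun1d3 and the RNA-binding repressor Pum2 did not pass either (log2 fold changes 0.17, -0.11 and -0.03).

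Of the 746 regions on placed chromosomes, 303 (40.6%) had their centre within 1 kb of the nearest gene start, against 63.3% of the shared and 21.2% of the DMSO consensus-only intervals. Another 148 lay over 1 to 10 kb away, 206 over 10 to 50 kb, 57 over 50 to 100 kb and 32 over 100 kb. The median distance was 4018 bp, against 212 bp for shared and 12948 bp for DMSO consensus-only intervals. The centre was inside an annotated gene in 474 regions (63.5%), and 228 of these were over 1 kb from a start. Exons and introns were not separated, since no transcript annotation was used. Split by the DMSO library that had a peak, 51.9% of regions with a peak in DMSO replicate 2 alone were within 1 kb of a start, against 25.2% of those with a peak in DMSO replicate 1 alone and 31.8% of those with neither. Gene starts were known with their strand for 80.2% of the genes placed and taken as the nearer gene end for the rest. With known starts alone, 33.4% of the regions were within 1 kb, against 53.4% of the shared and 16.8% of the DMSO consensus-only intervals. The regions were spread over all the autosomes and X, from 4.07% of the AMLE consensus intervals of chromosome 4 to 8.59% of those of X.

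**Figure D2:**
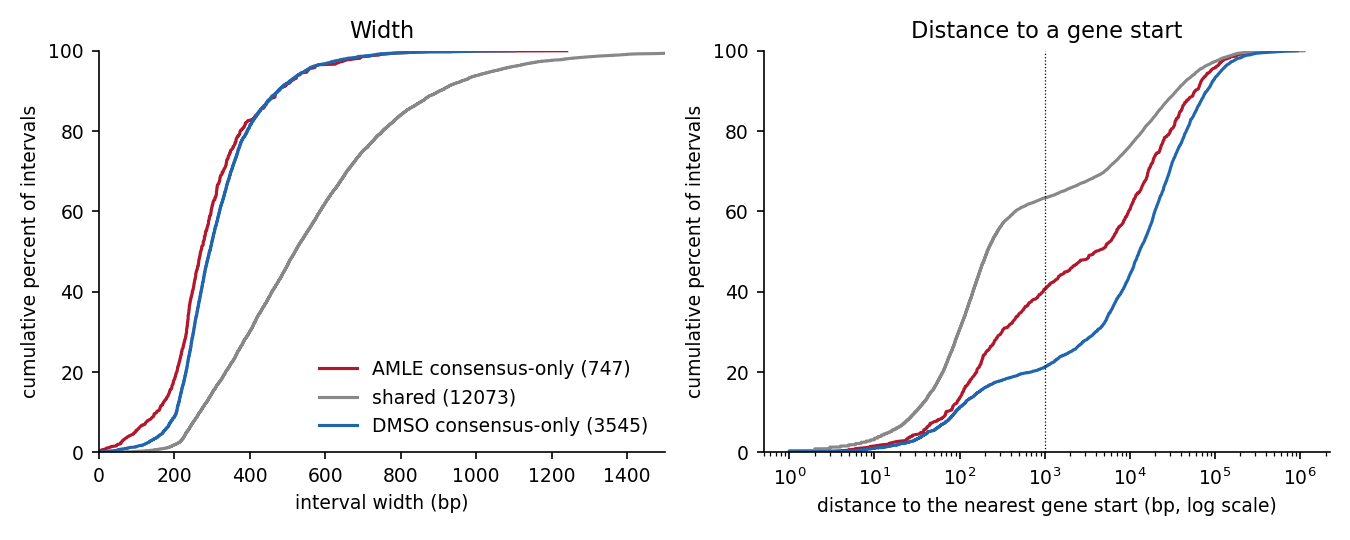
Cumulative percent of AMLE consensus-only, shared and DMSO consensus-only intervals by width in bp (left) and by distance from the interval centre to the nearest gene start in bp on a log scale (right; the dotted line marks 1 kb). AMLE consensus-only regions and DMSO consensus-only intervals have median widths of 270 and 294 bp, and AMLE consensus-only regions lie between the other sets in distance (40.6% within 1 kb).

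Of the genes called next to AMLE consensus-only regions, more were higher than lower in AMLE cells, and the same held for DMSO consensus-only intervals. The 746 regions had 698 distinct nearest genes, of which 610 passed the filter on low counts and 21 had no count in any library. Of the 610, 207 were higher (33.9%), against 23.0% of all 13075 genes tested, and 137 were lower (22.5%), close to the 25.6% of all genes. With a change of at least 2-fold, 48 were higher (7.87%, against 5.52% of all genes) and 23 were lower (3.77%, against 4.40%). The median log2 fold change was 0.09 among the 610 and -0.01 over all genes. Genes nearest to shared intervals, which were expressed at a like level (median of the AMLE means 40.9 CPM, against 42.7 CPM next to AMLE consensus-only regions and 25.7 CPM over all tested genes), were higher in 22.5% and lower in 28.0%. Of 2352 tested genes nearest to DMSO consensus-only intervals, 679 were higher (28.9%) and 567 were lower (24.1%). Near gene starts, within 1 kb, 88 of 283 genes by AMLE consensus-only regions were higher (31.1%), against 21.5% by shared and 25.4% by DMSO consensus-only intervals, and 66 were lower (23.3%), against 29.3% and 27.8%. These sets were not at a like level: their medians of the AMLE means were 32.7, 42.6 and 24.2 CPM in the same order. Beyond 1 kb the shares were closer: 124 of 348 (35.6%) by AMLE consensus-only regions were higher, against 29.8% by shared and 30.8% by DMSO consensus-only intervals, and 74 were lower (21.3%), against 21.5% and 22.8%. No test was made of these shares, since neighbouring genes and regions are not replicates. Of the 698 genes, 380 (54.4%) were also nearest to a shared interval and 259 (37.1%) to a DMSO consensus-only interval.

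**Figure D3:**
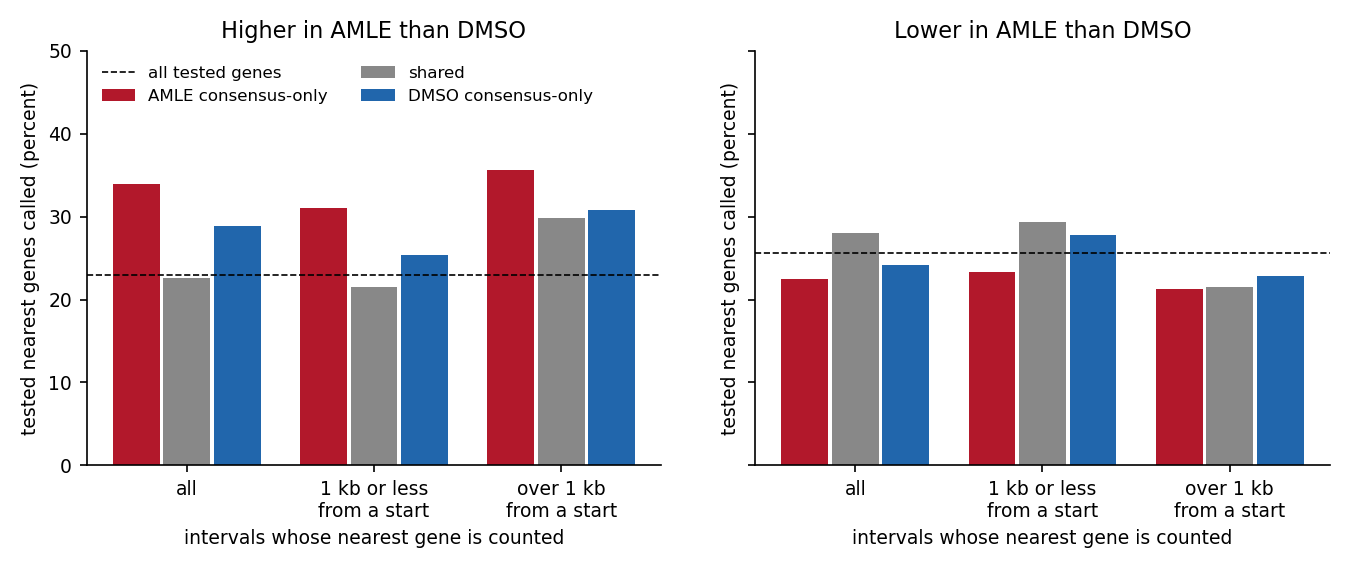
Percent of tested nearest genes called higher (left) or lower (right) in AMLE than DMSO RNA libraries (edgeR, adjusted p under 0.05), for AMLE consensus-only, shared and DMSO consensus-only intervals, all and by distance from a gene start; the dashed line is the share of all 13075 tested genes. Next to AMLE consensus-only regions 33.9% were higher and 22.5% lower, against 23.0% and 25.6% of all tested genes.

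Among the nearest genes that rose most were Fscn1, Aldh1a2 and Htr7. Fscn1, which bundles actin in mature dendritic cells, had 1921, 2211 and 1616 CPM in AMLE libraries, against 491, 545 and 533 CPM in DMSO libraries (log2 fold change 1.87, SE 0.12, edgeR adjusted p = 6.84e-05). Its region lies upstream, 24167 bp from the start (chr5:142935817-142936559), and had a weak peak in DMSO replicate 2 (fold 3.06). Aldh1a2, the enzyme that makes retinoic acid from retinal, had 244, 317 and 138 CPM in AMLE libraries, against 68.6, 71.1 and 84.6 CPM in DMSO libraries (log2 fold change 1.64, SE 0.28, edgeR adjusted p = 0.0034). Every AMLE library was above every DMSO library, with AMLE replicate 3 the lowest of its group. With the replicate block, the Aldh1a2 call passed with an edgeR adjusted p of 0.0471. Its region (chr9:71215622-71215792) covers part of the promoter shown with the sequences, and DMSO replicate 1 alone has a peak there. Htr7, a serotonin receptor, had 29.4, 35.6 and 18.5 CPM in AMLE libraries, against 6.93, 7.41 and 6.55 CPM in DMSO libraries (log2 fold change 2.00, SE 0.24, edgeR adjusted p = 0.000714). The Htr7 region (chr19:36057357-36057608) also sits on the promoter and has a peak in DMSO replicate 2 alone.

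Flrt2, a membrane protein of cell adhesion and guidance, had 36.5, 35.4 and 16.3 CPM in AMLE libraries, against 5.66, 5.51 and 2.79 CPM in DMSO libraries (log2 fold change 2.66, SE 0.38, edgeR adjusted p = 0.0016). AMLE replicate 3 was the lowest AMLE library and still above every DMSO library. Both Flrt2 regions lie inside the gene: chr12:95695364-95695478 has no DMSO peak, and chr12:95741419-95741655 has one in DMSO replicate 2. Ddit4, an inhibitor of mTORC1 induced by stress, had 54.3, 48.2 and 50.8 CPM in AMLE libraries, against 14.1, 15.4 and 10.9 CPM in DMSO libraries (log2 fold change 1.92, SE 0.13, edgeR adjusted p = 8.31e-05). Its regions flank the gene, 18926 bp downstream with a peak in DMSO replicate 2 (chr10:59932731-59932958) and 22575 bp upstream with no DMSO peak (chr10:59974207-59974484). Mpp2, a membrane scaffold protein, was a low gene, with 4.35, 4.73 and 3.67 CPM in AMLE libraries, against 0.763, 0.597 and 0.655 CPM in DMSO libraries. It rose (log2 fold change 2.65, edgeR adjusted p = 9.41e-05), with no overlap between groups. Gm32511 had 5.32, 8.52 and 1.60 CPM in AMLE libraries, against 1.40, 1.90 and 1.14 CPM in DMSO libraries, so AMLE replicate 3 lay within the DMSO range. Its call (log2 fold change 1.82, SE 0.57, edgeR adjusted p = 0.0348) was lost in 7 of 10 alternatives, with adjusted p up to 0.106.

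Further promoter regions sat at genes that rose, chosen here after their values were seen. Havcr2, the inhibitory receptor TIM-3, had 17.7, 22.6 and 7.22 CPM in AMLE libraries, against 5.21, 4.78 and 6.44 CPM in DMSO libraries (log2 fold change 1.54, SE 0.39, edgeR adjusted p = 0.0165). AMLE replicate 3 stood well below the other AMLE libraries, and the call did not hold with the replicate block (adjusted p = 0.067) or when some single libraries were left out (up to 0.0585). Tspan33, a tetraspanin, had 44.4, 48.6 and 42.8 CPM in AMLE libraries, against 18.2, 20.4 and 24.6 CPM in DMSO libraries (log2 fold change 1.10, SE 0.11, edgeR adjusted p = 0.000337), and Il15ra, which presents IL-15 to lymphocytes, had 49.6, 59.3 and 47.8 CPM in AMLE libraries, against 28.2, 29.8 and 25.7 CPM in DMSO libraries (log2 fold change 0.91, SE 0.10, edgeR adjusted p = 0.0004). The groups were apart in both genes, and their promoter regions had a single DMSO peak, in replicate 2 at Tspan33 and in replicate 1 at Il15ra. Among the 88 higher genes with a region within 1 kb of the start, Rhoc, Fmnl2, Fnbp1l, Nck2 and Jak3 each have a peak there in DMSO replicate 2 alone and were also picked for their values. They rose by 1.22, 1.18, 1.16, 1.33 and 1.06 on the log2 scale (edgeR adjusted p = 6e-05 to 0.000523). Vdr, the vitamin D receptor, has a region 421 bp and another 6239 bp from its start, both with a peak in DMSO replicate 2 alone, and had 173, 212 and 135 CPM in AMLE libraries, against 72.9, 84.0 and 76.6 CPM in DMSO libraries (log2 fold change 1.16, SE 0.16, edgeR adjusted p = 0.0013). The adenosine receptor gene Adora2a rose by 1.43 on the same scale, with its region 34014 bp away inside Specc1l.

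**Figure D4:**
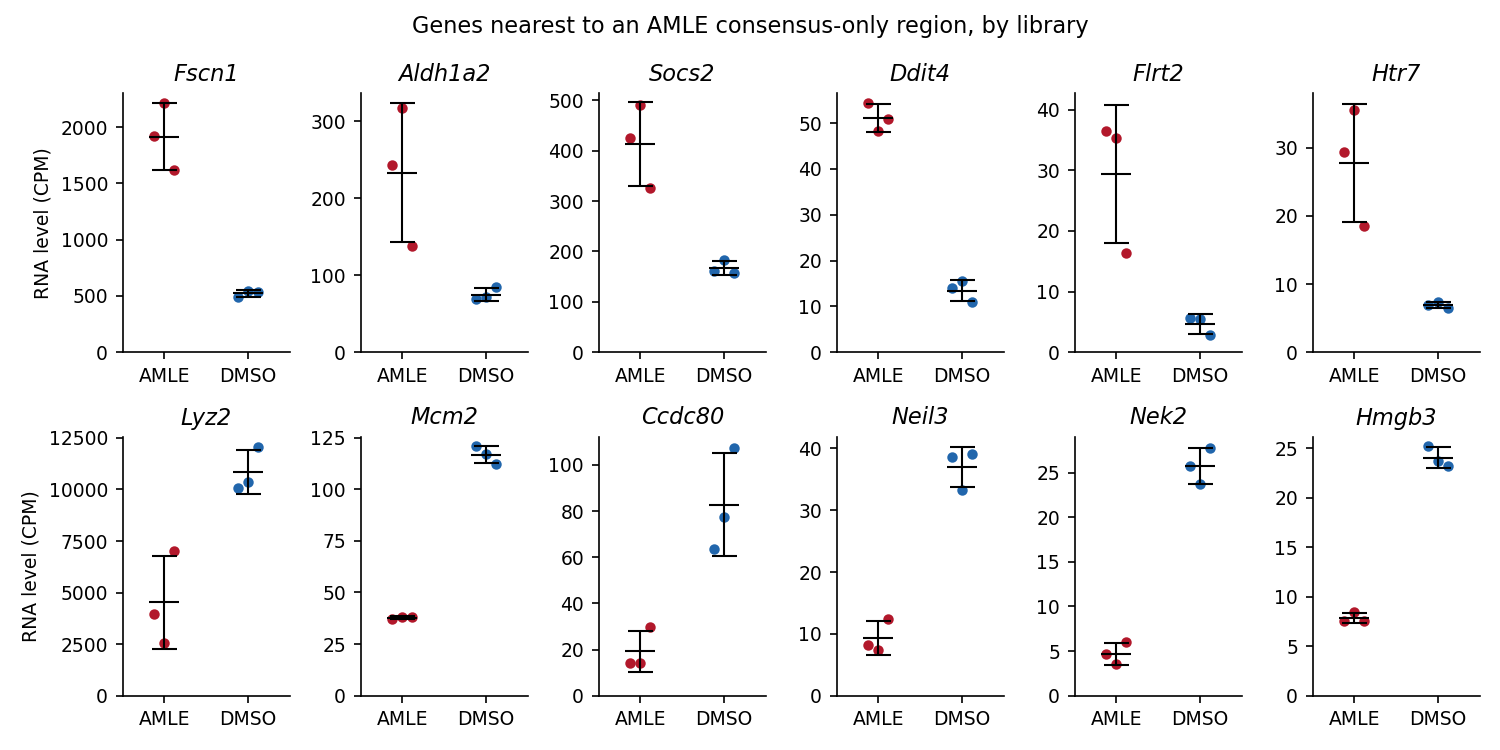
RNA level in CPM of 6 genes that rose (top) and 6 that fell (bottom) among those nearest to an AMLE consensus-only region; each point is a library, with the mean and SD of 3 AMLE and 3 DMSO libraries in black. All 12 genes were picked from those called higher or lower, and no AMLE library overlaps the DMSO range in any of them. AMLE replicate 3 (right-hand point) lies nearest to DMSO in every gene but Ddit4 and Hmgb3, where AMLE replicate 2 does.

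Of the 8 genes with the largest falls, 4 encode proteins of cell division or DNA replication and repair. Nek2, a centrosome kinase, had 4.62, 3.53 and 5.96 CPM in AMLE libraries, against 25.7, 23.7 and 27.8 CPM in DMSO libraries (log2 fold change -2.46, SE 0.17, edgeR adjusted p = 0.000111). Neil3, a DNA glycosylase of replicating cells, had 8.12, 7.38 and 12.5 CPM in AMLE libraries, against 38.6, 33.3 and 39.0 CPM in DMSO libraries (log2 fold change -1.99, SE 0.19, edgeR adjusted p = 0.000317). Mcm2, a subunit of the replicative helicase, had 36.9, 38.1 and 38.2 CPM in AMLE libraries, against 121, 117 and 112 CPM in DMSO libraries (log2 fold change -1.63, SE 0.05, edgeR adjusted p = 1.42e-05). The Mcm2 and Nek2 regions cover the gene starts (chr6:88898667-88898876 and chr1:191821376-191821877), that of Mcm2 with a peak in DMSO replicate 1 alone and that of Nek2 in DMSO replicate 2 alone, while the Neil3 region is 33809 bp inside the gene. Cenph, a kinetochore protein, and Hmgb3, a chromatin protein with HMG boxes, fell by 1.66 and 1.61 on the log2 scale (edgeR adjusted p = 0.000236 and 2.98e-05). The Hmgb3 region (chrX:71555808-71556016) lies on the promoter shown with the sequences and had fold enrichments of 8.80 and 8.15 in AMLE replicates 1 and 2, with a peak of 11.3 in the DMSO replicate 2 list. Also named after their values were seen, Hmgb1, Shmt2, Umps and Dnajc9 have a region within 1 kb of the start and fell by 0.86, 1.37, 1.33 and 1.16, and Cdc25b, a phosphatase that starts mitosis, fell by 1.08 with its region 9951 bp away.

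Ccdc80, a secreted matrix protein, had 14.1, 14.2 and 29.6 CPM in AMLE libraries, against 63.7, 77.5 and 107 CPM in DMSO libraries (log2 fold change -2.11, SE 0.33, edgeR adjusted p = 0.0024), but its region is 67842 bp away, inside Cd200r3. Hsd11b2, which inactivates glucocorticoids, and Fcrl1, an Fc receptor-like protein of B cells, were low genes that fell by 1.69 and 1.44 (edgeR adjusted p = 0.0056 and 0.000649). Summed B cell markers were 17.8 to 24.8 CPM in AMLE libraries and 17.6 to 26.2 CPM in DMSO libraries. The part of B cells in the Fcrl1 result was not tested.

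Gpc1 and Zfhx3 were nearest to 3 AMLE consensus-only regions each, the most of any gene; 44 genes had 2 and 652 had 1. Gpc1, a heparan sulfate proteoglycan of the cell surface, had 170.5, 168 and 228 CPM in AMLE libraries, against 74.6, 81.6 and 85.1 CPM in DMSO libraries (log2 fold change 1.23, SE 0.13, edgeR adjusted p = 0.000415). Its regions lie at chr1:92798536-92798835, chr1:92805880-92806170 and chr1:92831642-92831894, the first with a peak in DMSO replicate 1 alone and the others with one in DMSO replicate 2 alone. Zfhx3, a large zinc finger and homeobox factor, had 29.4, 28.4 and 34.7 CPM in AMLE libraries, against 26.1, 24.6 and 25.6 CPM in DMSO libraries (log2 fold change 0.27, SE 0.08, edgeR adjusted p = 0.0312). The Zfhx3 call was lost when any 1 DMSO library was left out, with adjusted p of 0.0687 to 0.105.

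Regions with no peak in either DMSO library had median folds of 4.06 and 4.24 in AMLE replicates 1 and 2, against 4.32 and 4.54 for those with a peak in DMSO replicate 1 alone and 4.81 and 4.99 for those with one in DMSO replicate 2 alone. No such region was among the 8 strongest. Of their 112 tested nearest genes, 43 were higher (38.4%) and 19 were lower (17.0%), against 23.0% and 25.6% of all genes. With a change of at least 2-fold, 6 of the 112 were higher (5.36%) and 4 were lower (3.57%), close to the 5.52% and 4.40% of all genes. Within 1 kb of a start, 11 of 39 were higher (28.2%) and 7 were lower (17.9%). The strongest of them by mean fold sat at the start of Shf (chr2:122369084-122369318; folds 5.15 and 8.02), an adaptor protein, the start of Slc9a7 (chrX:20291671-20291908; 6.81 and 5.56), a cation exchanger, and 68284 bp from Hsp90b1 (chr10:86637047-86637274; 7.30 and 5.05), an endoplasmic reticulum chaperone. Shf RNA was at most 0.688 CPM in every library and did not pass (log2 fold change 0.27). Slc9a7 did not pass (log2 fold change 0.36, edgeR adjusted p = 0.14) but did with the replicate block (adjusted p = 0.0433). Hsp90b1 had 615, 563 and 589 CPM in AMLE libraries, against 1008, 968 and 985 CPM in DMSO libraries (log2 fold change -0.75, SE 0.06, edgeR adjusted p = 0.000111). Other genes by such regions that rose were Tmem131 (403, 445 and 397 CPM in AMLE libraries, against 202, 194 and 209 CPM in DMSO libraries), Phf24 (log2 fold change 1.11) and Gp5 (8.43, 7.61 and 4.32 CPM in AMLE libraries, against 3.69, 2.35 and 1.69 CPM in DMSO libraries; log2 fold change 1.39, SE 0.35, edgeR adjusted p = 0.0147). Without AMLE replicate 1 the Gp5 call was lost (adjusted p = 0.0508), as it was without DMSO replicate 2 (adjusted p = 0.0531).

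Tnfaip3, which encodes A20, the brake on NF-kB signalling, has a region with no DMSO peak 38345 bp upstream of its start (chr10:19053644-19053867; folds 7.30 and 4.04). Its RNA was 186, 196 and 190.1 CPM in AMLE libraries, against 121, 126 and 112 CPM in DMSO libraries (log2 fold change 0.67, SE 0.06, edgeR adjusted p = 0.000155). The NF-kB list held 25 genes, 20 higher and 1 lower in AMLE cells (median log2 fold change 0.60), and 3 of them (12%) were nearest to an AMLE consensus-only region, against 4.67% of all tested genes. The gene lists here and below were chosen with earlier results of these data known, so their counts are descriptions only. Over all tested genes, 23.0% were higher and 25.6% lower. Nfkb1, the p105 and p50 subunit, had 579.6, 650.4 and 508 CPM in AMLE libraries, against 359, 364 and 377 CPM in DMSO libraries (log2 fold change 0.66, SE 0.09, edgeR adjusted p = 0.0011), with its region 540 bp from a gene end (chr3:135691300-135691558) and a peak in DMSO replicate 2 alone. The adaptor gene Traf3 did not pass (log2 fold change 0.12).

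Of 37 tested genes of costimulation and maturation, 33 were higher in AMLE cells and 1 was lower, with a median log2 fold change of 1.06 against -0.01 over all genes. This list too was chosen with earlier results of these data known, so the counts do not test a rise of such genes. Among all tested genes 23.0% were higher and 25.6% lower. Of the 37, 7 (18.9%) were nearest to an AMLE consensus-only region, against 4.67% of all tested genes. Besides Fscn1 and Il15ra, Socs2, a feedback inhibitor of cytokine receptors, had 425, 489.6 and 325 CPM in AMLE libraries, against 162, 183 and 157 CPM in DMSO libraries (log2 fold change 1.305, SE 0.15, edgeR adjusted p = 0.000617). Cd83, the classic surface marker of mature dendritic cells, had 417, 499.5 and 415 CPM in AMLE libraries, against 189, 226 and 226 CPM in DMSO libraries (log2 fold change 1.06, SE 0.10, edgeR adjusted p = 0.000269), and its region lies 19 bp from a DMSO consensus interval. Marcks and Marcksl1, actin-linked substrates of protein kinase C, rose by 0.99 and 0.55 on the log2 scale, with regions 180370 bp and 1029 bp from a start. Tnfsf9, the 4-1BB ligand, has a region with no DMSO peak 223 bp from its start and did not pass (log2 fold change 0.38, edgeR adjusted p = 0.102, or 0.0168 with the replicate block).

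Of 43 transcription factor genes of dendritic and myeloid cells, 9 (20.9%) were nearest to an AMLE consensus-only region, against 4.67% of all tested genes. The share nearest to shared or DMSO consensus-only intervals was not taken for this or the other lists. In the whole list 16 were higher and 12 lower (median log2 fold change 0.13), against 23.0% and 25.6% of all tested genes. Nr4a2, an orphan nuclear receptor, had 6.06, 7.61 and 7.57 CPM in AMLE libraries, against 3.11, 2.95 and 3.17 CPM in DMSO libraries (log2 fold change 1.20, SE 0.13, edgeR adjusted p = 0.000442), and Tcf4, the E protein of plasmacytoid dendritic cells, had 29.8, 39.1 and 32.7 CPM in AMLE libraries, against 19.7, 20.8 and 21.6 CPM in DMSO libraries (log2 fold change 0.72, SE 0.10, edgeR adjusted p = 0.0014). Runx3 and Id2, both needed by dendritic cell subsets, rose by 0.47 and 0.38 on the log2 scale. Rara, a retinoic acid receptor, Cebpe, a granulocyte factor, and Spi1, which encodes PU.1, fell by 0.45, 0.35 and 0.20. The Cebpe and Spi1 calls were lost in 3 and 4 of the fits that leave out 1 library (adjusted p up to 0.0995 and 0.0821). Runx1 and Bach2 did not pass (log2 fold changes 0.06 and -0.27).

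Of 42 cytoskeleton, adhesion and migration genes, 6 (14.3%) were nearest to an AMLE consensus-only region, against 4.67% of all tested genes. Of the 42, 14 were higher and 6 lower (median log2 fold change 0.03), against 23.0% and 25.6% of all tested genes. Itgav, the integrin alpha V chain, had 46.4, 48.1 and 38.7 CPM in AMLE libraries, against 31.7, 28.4 and 32.1 CPM in DMSO libraries (log2 fold change 0.53, SE 0.09, edgeR adjusted p = 0.0033). Dock10, an exchange factor for small GTPases, rose by 0.43 on the log2 scale, a call lost without AMLE replicate 1, DMSO replicate 1 or DMSO replicate 2 (adjusted p up to 0.0671). Arhgef3, Elmo1 and Mmp9 did not pass. Arhgef3 did pass without DMSO replicate 3 (adjusted p = 0.0073), and Elmo1 without AMLE replicate 3 (adjusted p = 0.0117).

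Each of the next lists had 1 or 2 genes nearest to a region, and these shares compare with 4.67% of all tested genes. The lists' counts of higher and lower genes compare with 23.0% and 25.6% of all tested genes. They are descriptions, since the lists were chosen with earlier results of these data known. Among 31 AP-1, BATF, IRF and STAT factor genes, 17 higher and 2 lower (median log2 fold change 0.57), there were 2 (6.45%): Fosl2, the AP-1 subunit FRA-2, had 229, 222 and 223 CPM in AMLE libraries, against 161, 164 and 149 CPM in DMSO libraries (log2 fold change 0.51, SE 0.05, edgeR adjusted p = 0.000306), and Irf4 did not pass (log2 fold change 0.30, edgeR adjusted p = 0.0594), although it did with DESeq2 and without AMLE replicate 3 or DMSO replicate 3 (lowest adjusted p 0.0174). Among 29 cytokine and chemokine genes, 19 higher and 1 lower (median 0.98), Lif, an IL-6 family cytokine, was the only one (3.45%), at 15.1, 17.6 and 10.6 CPM in AMLE libraries, against 5.63, 5.79 and 3.48 CPM in DMSO libraries (log2 fold change 1.54, SE 0.25, edgeR adjusted p = 0.0026). Its region lies inside the gene, 1328 bp from the start (chr11:4258784-4259008). Among 30 genes of the aryl hydrocarbon receptor and NRF2 pathways, 12 higher and 3 lower (median 0.21), it was Hmox1, which breaks down heme, with 168, 118 and 217 CPM in AMLE libraries, against 77.7, 90.4 and 97.5 CPM in DMSO libraries (log2 fold change 0.92, SE 0.21, edgeR adjusted p = 0.011). AMLE replicate 2 was the lowest AMLE library and still above the DMSO range. Of 38 cell cycle genes, 5 higher and 29 lower (median -1.20), only Mcm2 was nearest to a region (2.63%).

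The macrophage and monocyte list had 29 tested genes, 3 higher and 14 lower (median log2 fold change -0.71). Of these, Lyz2 and Mertk (6.90%) were nearest to a region, against 4.67% of all tested genes. Over all tested genes, 23.0% were higher and 25.6% lower. Lyz2, the lysozyme of macrophages and granulocytes, had 3977, 2564 and 7018 CPM in AMLE libraries, against 10054, 10380 and 12053 CPM in DMSO libraries (log2 fold change -1.26, SE 0.34, edgeR adjusted p = 0.0196). The groups did not overlap, AMLE replicate 3 was nearest to the DMSO libraries, and the call was lost without AMLE replicate 1 or DMSO replicate 3 (adjusted p = 0.0679 and 0.0566). Among the 6 macrophage markers, 1 was higher and 3 were lower, and the part of macrophage numbers in the Lyz2 result was not tested. Its region lies 5341 bp from the start (chr10:117276820-117277043) with a peak in DMSO replicate 1 alone. Mertk, an uptake receptor of macrophages, did not pass (log2 fold change -0.21), but did with the replicate block (adjusted p = 0.0429). No gene of 25 tested markers of granulocytes, mast cells and other lineages, 5 higher and 8 lower (median -0.15), was nearest to an AMLE consensus-only region. These 5 and 8 calls of 25 lie near the shares of all tested genes.

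**Figure D5:**
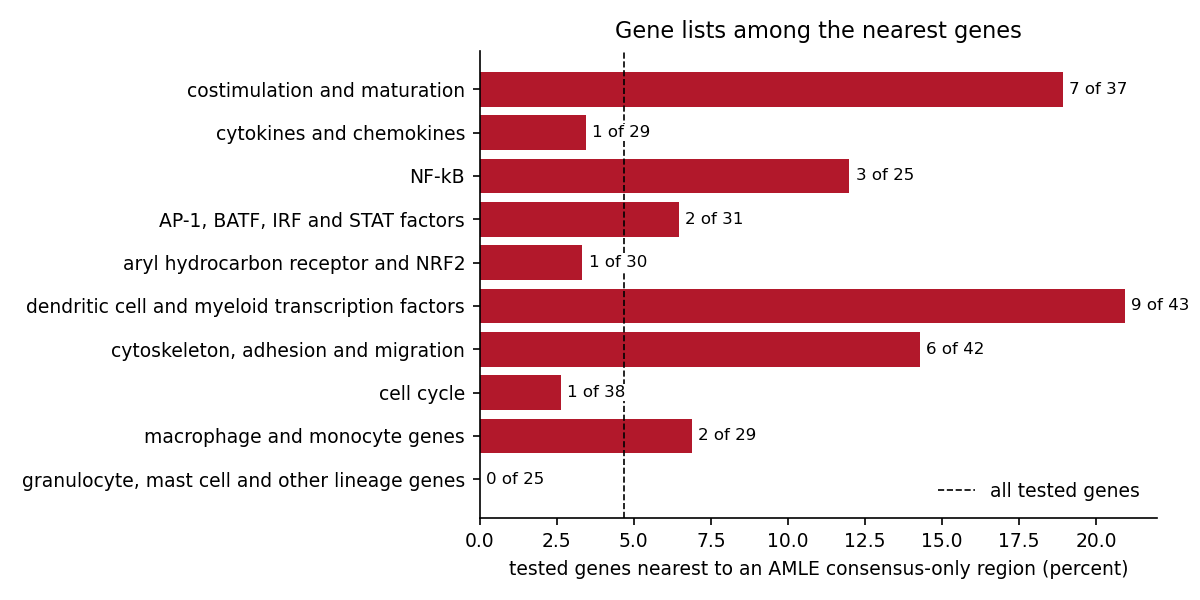
Percent of the tested genes of each list that are nearest to an AMLE consensus-only region, with the counts beside the bars; the dashed line is the share among all 13075 tested genes (4.67%). The lists of dendritic and myeloid transcription factors (9 of 43) and of costimulation and maturation (7 of 37) have the longest bars, and the granulocyte, mast cell and other lineage list has none.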

How the data were processed

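The study measured RNA and open chromatin in AMLE- and DMSO-treated dendritic cells. For RNA, the authors deposited raw counts per gene symbol from stranded poly(A) libraries. For ATAC-seq, the authors deposited a peak list per library, giving each summit a −log10 q and a fold enrichment, the ratio to local background, and a consensus list per group. Every one of the 12820 AMLE and 15643 DMSO consensus intervals equalled an intersection of its 2 replicate lists. The submitters' processing notes name STAR 2.7.11b, Bowtie2 2.4.4, MACS3 3.0.0a7 and the build mm10; the peak caller's settings and the counting tool were not given in the sources used here, and the read depth of the ATAC libraries is unknown. Reads of overlapping or near-identical genes could be split.

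Summits of 1 peak were merged, keeping the highest value. Peak scores were ranked only within a list. Regions and comparison sets were found by overlap of at least 1 bp. Gene starts came from RefSeq (GRCm38.p6, the mm10 coordinates): 24244 of 24385 symbols matched, 1050 of them by an older symbol, and 22547 protein-coding and long noncoding genes were placed. No genome sequence was used, so motifs were searched only in RefSeq promoter windows, not in whole regions as first planned, and exons were not annotated.

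RNA was tested with edgeR 4.0.16 in R 4.3.3 (TMM, filterByExpr, robust quasi-likelihood F test, two-sided, Benjamini-Hochberg over all 13075 genes, threshold 0.05) on 3 against 3 libraries. Tested on simulated data for this comparison (13075 genes), it recovered 41 of 67 genes changed 1.5-fold, 51 of 67 changed 2-fold and 61 of 66 changed 4-fold. The simulation changed only these genes, far fewer than the 3004 called higher and 3346 called lower here, so the rates may not hold for these data. DESeq2 1.42.0, limma-voom (limma 3.58.1), no filter, leaving out libraries and a replicate block were alternatives. Same-numbered libraries deviated together (correlations of deviations from the group means 0.292, 0.280 and 0.431), against -0.310 to 0.110 for the other pairs. The numbers of the titles may therefore pair the samples, but the labels do not say so. The main fit is unpaired, and the block value is given where it changes a call.

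The regions, gene lists and tests were chosen with earlier results of these data known. Named genes were those nearest to the 8 regions of highest mean fold, the 8 largest rises and 8 largest falls among called nearest genes with a mean of at least 1 CPM, genes nearest to 3 or more regions, up to 2 called genes per list with the largest change, and 4 intervals at the edge of the rule. One gene that the rule gives is not reported here. Every other gene named was chosen after its values were seen.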

Additional observations from a re-analysis of the deposited data

How the results depend on the processing

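The number of AMLE consensus-only regions depended on how the lists were set against each other. It was 747 as defined, 1000 when only intervals covered to 50% or more by the DMSO consensus were removed, and 641 with no DMSO consensus interval within 1000 bp. It was 133 with no peak in either DMSO library and 179 with a −log10 q of 5 or more in both AMLE libraries. Leaving out 1 ATAC library gave 351 to 2788. The share with a peak in exactly 1 DMSO library was 81.8% and 76.2% when 50% of the region had to be covered. The share within 1 kb of a gene start was 40.6%. It was 47.3% within 2.5 kb, 51.4% for regions with a −log10 q of 5 or more in both AMLE libraries, 31.8% for those with no DMSO peak and 33.4% with known starts alone.

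The nearest genes called higher and lower numbered 207 and 137, and 167 to 227 and 107 to 136 when 1 RNA library was left out. The shares were 27.2 to 37.0% and 17.4 to 22.2% in those fits, against 17.1 to 24.9% and 20.2 to 26.2% of all genes. DESeq2 gave 218 and 124 (35.7 and 20.3%, against 23.0 and 23.8% of all genes), limma-voom 207 and 139 (33.9 and 22.8%, against 22.9 and 25.8%) and the replicate block 232 and 147 (38.0 and 24.1%, against 26.3 and 29.2%). With no filter on low counts they were 195 and 131 (28.8 and 19.35%, against 15.8 and 18.2%), so the lower share then stood above that of all genes. Counting every gene with a start within 50 kb gave 348 and 305 of 1235 genes (28.2 and 24.7%). The regions with no DMSO peak gave 43 and 19, those with a −log10 q of 5 or more in both AMLE libraries gave 50 and 47 of 162 genes (30.9 and 29.0%), and those left after removing regions with a peak in DMSO replicate 2 alone gave 100 and 66 of 300. The shares by the regions with a −log10 q of 5 or more compare with 33.9 and 22.5% for all regions; the cause was not tested. The last removal and the count with known starts alone were chosen after seeing the data.

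Of the 80 named genes that were tested, 65 passed, and 55 of these passed in all 10 alternatives. Many of the 80 were named because they were called or after their values were seen, so these counts describe the named genes only. Of all 13075 tested genes, 23.0% were higher and 25.6% lower. Lost calls were those of 9930021J03Rik, Ccdc86, Cebpe, Dock10, Gm32511, Gp5, Havcr2, Lyz2, Spi1 and Zfhx3, with adjusted p between 0.0501 and 0.136. Mmp9, which did not pass, changed sign without AMLE replicate 1 (-0.08) and without DMSO replicate 3, with a range of -0.25 to 0.31 when 1 library was left out. With 2 ATAC libraries per group, peaks near the calling threshold (a −log10 q of about 1.3) limit what can be called absent.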
